A study of Homo sapiens with 27 samples.

Results

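The collagen genes are the genes for the alpha chains from which every collagen molecule is built. They were taken as all gene symbols that consist of COL, a number, the letter A and a number in the read count tables of 22Rv1, DU145 and PC3, established lines of human prostate cancer cells, which gave 44 of the 27546 symbols listed in at least 1 table. RNA-seq compared cells carrying control gRNA 1, labelled WT, with cells carrying a guide RNA against RIPK2, labelled RIPK2 knockout. RIPK2 encodes a kinase that relays signals from the intracellular receptors NOD1 and NOD2. Each line had 3 groups of 3 libraries: control, RIPK2 gRNA 10 and a second RIPK2 guide, labelled gRNA 2 for DU145 and PC3 but gRNA 1 for 22Rv1, which makes 27 libraries. The labels name no treatment or time point, and they do not say whether a group was a single clone or a pool of edited cells, nor whether its libraries came from separate cultures. The p-values therefore measure the spread between these libraries, which may be technical, and a property of 1 edited population cannot be told apart from an effect of the guide. Both guides of a line were compared with the same 3 control libraries.

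Collagen chains wind in groups of 3 into a triple helix. Fibril-forming chains (types I, II, III, V, XI, XXIV and XXVII) give connective tissue its tensile fibrils, type IV chains form the meshwork of basement membranes, and type VI chains assemble beaded filaments around cells. Fibril-associated chains such as types IX, XII and XIV sit on fibril surfaces, transmembrane chains such as types XIII and XVII anchor epithelial cells, and multiplexins such as type XVIII carry sugar chains in basement membranes. In the prostate, epithelial cells rest on a type IV basement membrane, and fibroblasts of the stroma make most of the fibrillar collagen.

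The sequences that bear on the results are those upstream of genes that moved most or that share a start region. Type IV genes lie head to head in pairs transcribed in opposite directions. In GENCODE release 29, 111 bases separate the starts of COL4A3 and COL4A4 and 346 bases those of COL4A5 and COL4A6. COL4A1 and COL4A2 overlap at their 5′ ends in that annotation, with 1420 bases between the starts. RefSeq promoter entries (GRCh38.p14) matched 32 of the 44 collagen genes. They are shown 5′ to 3′ on the strand of the named gene, limited to the longest stretch free of annotated exons within the 250 bases before the start. Capitals mark CCAAT and GGGCGG, searched on both strands, so that ATTGG and CCGCCC are their reverse complements. The first line, chr2:227164454-227164564 on the plus strand, holds exactly the bases between COL4A3 and COL4A4. The COL4A5 stretch is chrX:108439588-108439837 (plus strand). The other stretches lie before the RefSeq starts of genes described below: COL9A2 at chr1:40317389-40317536 (minus; inside the longer GENCODE gene, outside its exons), COL27A1 at chr9:114155287-114155536 (plus), COL12A1 at chr6:75206054-75206303 (minus) and COL5A1 at chr9:134641553-134641773 (plus).
COL4A3: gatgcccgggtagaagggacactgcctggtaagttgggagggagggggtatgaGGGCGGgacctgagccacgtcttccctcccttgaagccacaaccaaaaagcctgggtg
COL4A5: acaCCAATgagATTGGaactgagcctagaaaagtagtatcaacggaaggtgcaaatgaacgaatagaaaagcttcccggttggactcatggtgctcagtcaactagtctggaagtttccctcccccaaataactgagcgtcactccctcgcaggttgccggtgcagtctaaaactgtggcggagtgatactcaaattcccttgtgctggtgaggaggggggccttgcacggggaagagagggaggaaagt
COL9A2: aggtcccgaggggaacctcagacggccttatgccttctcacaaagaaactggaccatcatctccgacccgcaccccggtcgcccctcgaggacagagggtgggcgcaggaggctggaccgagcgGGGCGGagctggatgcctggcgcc
COL27A1: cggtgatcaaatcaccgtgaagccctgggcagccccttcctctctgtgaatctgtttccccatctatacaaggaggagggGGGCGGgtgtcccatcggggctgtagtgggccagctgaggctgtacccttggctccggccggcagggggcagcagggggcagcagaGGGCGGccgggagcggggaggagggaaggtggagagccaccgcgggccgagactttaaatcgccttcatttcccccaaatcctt
COL12A1: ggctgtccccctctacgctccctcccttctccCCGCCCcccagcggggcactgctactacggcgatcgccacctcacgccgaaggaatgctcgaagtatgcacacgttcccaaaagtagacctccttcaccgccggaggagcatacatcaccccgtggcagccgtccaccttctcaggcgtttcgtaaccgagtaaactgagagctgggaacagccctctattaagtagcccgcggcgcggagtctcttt
COL5A1: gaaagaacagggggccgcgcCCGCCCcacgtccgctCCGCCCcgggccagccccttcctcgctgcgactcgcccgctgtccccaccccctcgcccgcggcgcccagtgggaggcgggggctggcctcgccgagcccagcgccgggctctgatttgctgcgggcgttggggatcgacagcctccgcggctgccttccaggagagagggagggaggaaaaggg
Over the full 250 bases, GGGCGG was found in 18 of the 32 collagen promoters (56.2%, against 42.5% of 27303 promoters of that length) and CCAAT in 9 (28.1%, against 33%). The TATAAA motif, searched in the same way, was found in 6 (18.8%, against 11.2%). In the stretches shown, the marked matches do not overlap. In other promoters, such as those of COL18A1 and COL8A2, neighbouring CCGCCC matches share bases. These matches describe the letters and identify no bound site.

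Library totals ran from 17958558 to 20650819 counts. RIPK2 mRNA was lower in every knockout group than in the control. Its range was 15.78 to 18.16 CPM, the library-scaled count rate, in 22Rv1 controls against 8.316 to 9.413 with gRNA 1 and 5.197 to 5.574 with gRNA 10. In DU145 it was 39.36 to 44.37 against 9.868 to 13.34 (gRNA 2) and 33.41 to 36.38 (gRNA 10), and in PC3 59.27 to 62.36 against 20.05 to 21.71 and 25.47 to 28.29. The level of an mRNA does not measure loss of the protein. A pair of knockout libraries lay above the rest of their groups in mitochondrial content. In 22Rv1 gRNA 1 replicate 3, mitochondrially encoded genes took 14.98% of counts (1.762% and 1.629% in its group). In DU145 gRNA 2 replicate 3 they took 2.755% (1.651% and 1.978%). The first was the highest of its group for 19 of 28 tested collagens (67.9%, against 44% of all genes), and the second the lowest for 17 of 25 (68%, against 43.2%). Other libraries stood out in collagens as well. Among them, PC3 gRNA 2 replicate 1 was the lowest of its group for 20 of 29 (69%, against 34.5% of all genes). Replicate 3 of that group was the highest for 18 (62.1%, against 34.3%). In 22Rv1, control replicate 3 was the highest of the controls for 17 of 28 (60.7%, against 28.8%). Mitochondrial content also moved with whole groups. In 22Rv1 it was 0.4328%, 1.06% and 1.111% in control replicates 1, 2 and 3 and 1.577% to 1.777% with gRNA 10. In DU145 it was 1.191% to 1.243% in controls against 2.271% to 2.575% with gRNA 10, and 11 (gRNA 2) and 13 (gRNA 10) of the 13 mitochondrial genes were higher. In PC3 it was 3.711% to 3.926% against 2.471% to 2.723% with gRNA 10, where 11 of the 13 were lower. The part of mitochondrial content in the collagen values was not tested. Counts of changed collagens are given with and without 22Rv1 gRNA 1 replicate 3 and DU145 gRNA 2 replicate 3. Epithelial markers (EPCAM, KRT8, KRT18 and others) summed to 827 CPM or more in every control library. In DU145, KLK3, KLK2, HOXB13 and FOLH1, markers of luminal prostate cells, did not exceed 3 counts in any library.

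Of the 44 genes, 40 were listed in the table of 22Rv1, 41 in that of DU145 and 42 in that of PC3, and 28, 25 and 29 passed the filter on low counts. A collagen was called detected when the mean of at least 1 group of the line reached 1 CPM, which held for 25, 22 and 27. Detected in all 3 lines were 12, and 11 were detected in none: COL10A1, COL11A1, COL15A1, COL19A1, COL1A2, COL20A1, COL22A1, COL23A1, COL5A3, COL6A5 and COL6A6. COL1A2 encodes the partner of the COL1A1 chain in type I collagen, and COL15A1 the multiplexin related to COL18A1.

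Each control line had its own dominant collagen. Levels between genes are compared as CPM per kb of exon sequence. In 22Rv1 controls COL9A2, a chain of the fibril-associated type IX, reached 220.2 ± 30.7 CPM per kb (SD, n = 3) and made up 85.1% of all collagen CPM. The next was its partner COL9A3, at 7.476 CPM per kb, ahead of COL14A1 (fibril-associated) at 3.433 and COL4A5 (basement membrane) at 2.438. DU145 controls were led by COL18A1, which carries the endostatin domain, at 68.12 ± 5.4 CPM per kb, or 43.9% of collagen CPM. The chains COL6A1 at 26.38 and COL6A2 at 18.75 CPM per kb followed, then COL4A2 at 11.95 and COL4A1 at 7.84. PC3 controls held the highest single level, 848.4 ± 10.9 CPM per kb for COL6A1 (52.2% of collagen CPM), with COL6A2 at 521.4 (32.3%). Below them came the fibril chain COL5A2 at 95.73, COL13A1 at 15.04 and COL18A1 at 12.6. COL18A1 shares 1401 bases (16.4% of its exon bases) with the gene SLC19A1 on the opposite strand, and the sources used here do not say whether counting used strand, so its values are uncertain to that extent. All collagens together summed to 1091 ± 136 CPM in the controls of 22Rv1, to 1323 ± 63.8 for DU145 and to 8690 ± 28.5 for PC3 (SD, n = 3).

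**Figure D1:**
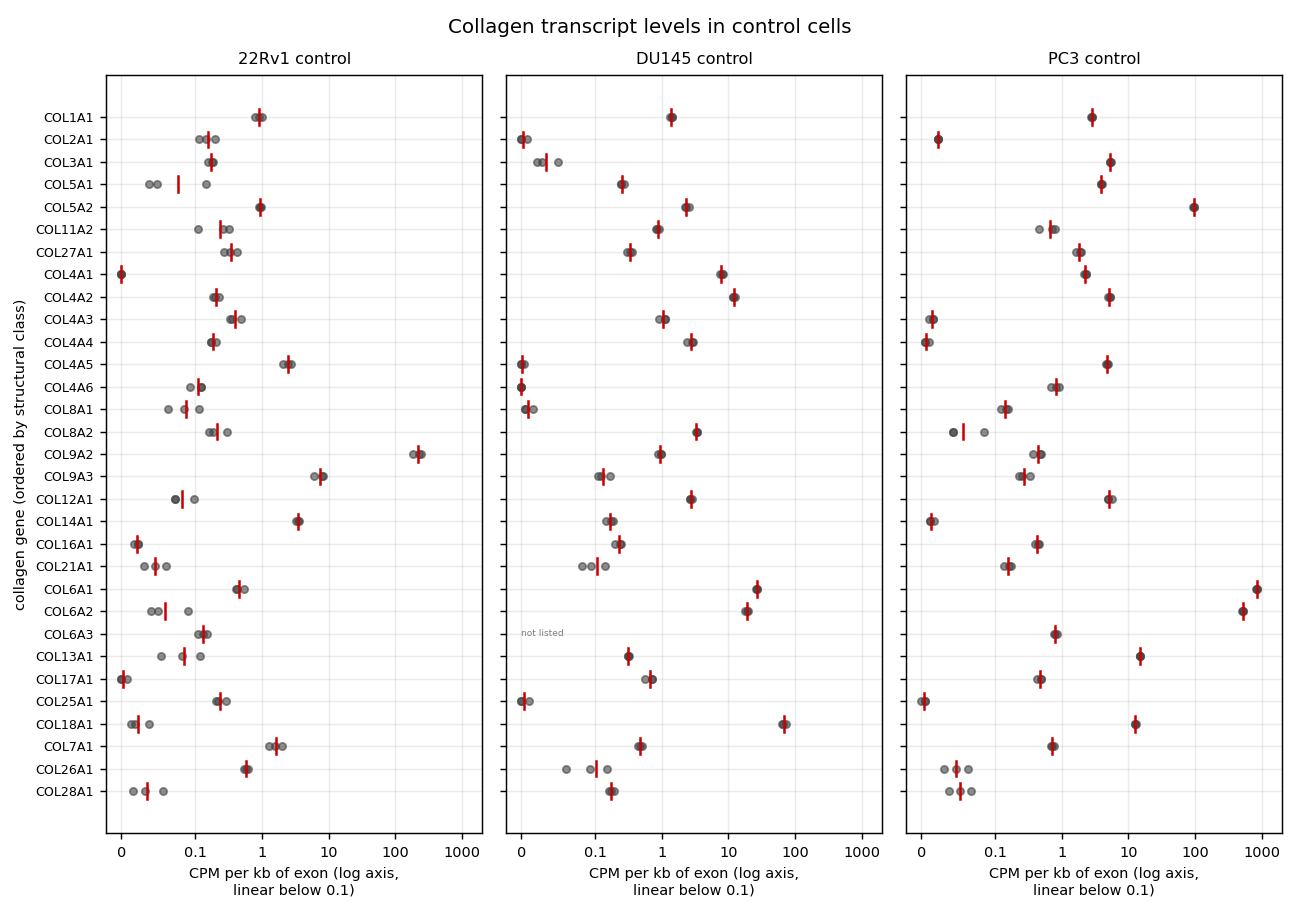
Collagen levels in the controls of the 3 lines, in CPM per kb of exon on a log axis that is linear below 0.1, with a point for each library and a red line at the mean of the 3. COL9A2 leads in 22Rv1, COL18A1 in DU145 and COL6A1 in PC3.

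The controls of the lines differed in most collagens, as in most genes. In 1 edgeR fit over all 27 libraries, 31 of the 33 collagens tested differed between 22Rv1 and DU145 controls (75.9% of all genes did), 12 higher and 19 lower in 22Rv1. Between 22Rv1 and PC3 the count was 32 of 33 (background 80.5%), 11 higher and 21 lower in 22Rv1, and between DU145 and PC3 26 of 33 (background 75.9%), 9 higher and 17 lower in DU145. Line and any batch of culture or sequencing cannot be told apart here.

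In 22Rv1, the type IX chains COL9A2 and COL9A3 fell with both guides, while chains of fibrils and of the basement membrane rose. With gRNA 1, 18 of 28 tested collagens changed where 48.5% of all genes did, 13 higher (25.6%) and 5 lower (22.9%). With gRNA 10, 20 changed where 40.6% of all genes did, 15 higher (20%) and 5 lower (20.6%). Without gRNA 1 replicate 3 the counts were 19 and 26. The median log2 fold change over tested collagens was 0.96 with gRNA 1 and 0.78 with gRNA 10, beside 0.02 and -5.62e-06 over all genes. A change of more than 1 on the log2 scale was seen in 60.7% and 64.3% of collagens, against 18.1% and 16% of all genes. Both guides raised 11 (12.4% of all genes) and lowered 3 (12.3%), and 2, COL26A1 and COL4A2, moved in opposite directions (2.43%). All 6 knockout libraries lay above all 3 control libraries at 11 collagens (17.5% of all genes) and below them at 4 (18.6%). The guides differed from each other at 14 of the 28 (35.6% of all genes). Those raised by both were COL1A1, COL21A1, COL24A1, COL27A1, COL28A1, COL4A3, COL4A4, COL4A5, COL4A6, COL5A2 and COL9A1, and those lowered were COL6A3, COL9A2 and COL9A3. In this and all later comparisons, changed means an adjusted p below 0.05 in edgeR's quasi-likelihood test, adjusted by Benjamini-Hochberg over all genes tested.

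COL9A2 (chr1:40300487-40317813, minus strand, hg38) held 18272, 14559 and 19218 counts in the 22Rv1 controls. It held 41, 63 and 140 with gRNA 1 and 31, 25 and 26 with gRNA 10. Every knockout library was far below every control. The log2 fold changes were -7.66 ± 0.39 (SE) with gRNA 1 and -9.36 ± 0.44 with gRNA 10 (edgeR adjusted p = 1.64e-07 and 8.24e-08). Genes within 5 Mb of COL9A2 had a median log2 fold change of 0.01 with gRNA 1 and -0.02 with gRNA 10 (114 genes). COL9A3, whose chain joins COL9A2 in the same molecule, held 729, 551 and 749 counts in controls, 109, 150 and 265 with gRNA 1 and 176, 187 and 155 with gRNA 10. The groups did not overlap, and COL9A3 fell by 1.88 ± 0.29 and 2.02 ± 0.29 on the log2 scale (edgeR adjusted p = 0.000425 and 0.000275). The third chain, COL9A1, was low and moved the other way, from 8, 6 and 8 counts to 36, 35 and 21 and to 44, 52 and 48 (log2 changes of 2.09 and 2.64, edgeR adjusted p = 0.000167 and 2.57e-05). The ratio of COL9A2 to COL9A3 per kb was 29.5 ± 0.783 in controls, 0.507 ± 0.09 with gRNA 1 and 0.183 ± 0.0258 with gRNA 10 (SD, n = 3). With COL9A2 set aside, summed collagen CPM in 22Rv1 was 162.9 ± 9.81 in controls, 332.5 ± 103 with gRNA 1 and 269.7 ± 8.78 with gRNA 10. With it, the sums were 1091 ± 136, 337.1 ± 107 and 271.1 ± 8.68. Removing that 1 gene thus turned the order of control and knockout around.

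Among fibril-forming chains, 5 of the 7 tested in 22Rv1 rose with each guide (25.6% of all genes with gRNA 1 and 20% with gRNA 10). None fell (22.9% and 20.6% of all genes). COL27A1 (chr9:114155560-114312511, plus strand), a fibrillar chain known from cartilage, held 70, 86 and 110 counts in controls. With gRNA 1 it held 716, 669 and 1506, and with gRNA 10 849, 829 and 890. The lowest knockout library was above the highest control by several times, with log2 fold changes of 3.52 ± 0.35 and 3.21 ± 0.34 (edgeR adjusted p = 1.85e-05 and 3.5e-05). COL5A2, which joins COL5A1 in the type V molecules that nucleate fibrils, rose from 129, 134 and 127 counts to 944, 863 and 1306 with gRNA 1 and to 370, 365 and 427 with gRNA 10. Its log2 fold changes were 3.06 ± 0.19 and 1.52 ± 0.19 (edgeR adjusted p = 7.05e-07 and 0.000101), and the guides differed from each other (adjusted p = 7.6e-05). COL5A1 itself failed the filter: it held 8, 10 and 30 counts in controls, 4, 3 and 3 with gRNA 1 and 0 in all 3 libraries of gRNA 10, at least 5.54-fold lower with a floor of 3 counts per library. That bound uses the control mean, which rests largely on the library at 30 counts. COL24A1, a minor fibrillar chain, rose from 7 to 9 counts in controls to 24 to 40 and 38 to 46 (log2 changes of 2.00 and 2.24, edgeR adjusted p = 0.000357 and 0.000147). COL1A1, the major chain of type I, held 166, 145 and 185 counts in controls, 212, 222 and 489 with gRNA 1 and 432, 419 and 470 with gRNA 10. All knockout libraries were above the controls, with log2 fold changes of 0.97 and 1.36 (edgeR adjusted p = 0.0242 and 0.0051). With gRNA 1 the COL1A1 call was not kept without control replicate 1 (0.97, adjusted p = 0.0659) or control replicate 2 (0.89, adjusted p = 0.0992). Its size rested on gRNA 1 replicate 3, without which it was 0.38 (adjusted p = 0.0174).

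COL2A1, the chain of cartilage fibrils, responded to gRNA 1 alone in 22Rv1. Counts were 18, 14 and 25 in controls, 257, 224 and 232 with gRNA 1 and 17, 21 and 26 with gRNA 10. Only the gRNA 1 libraries stood out (log2 fold change 3.69 ± 0.21, edgeR adjusted p = 3.98e-07). With gRNA 10 the log2 fold change was 0.11 ± 0.25 (adjusted p = 0.755), and the direct test between the guides gave -3.58 ± 0.21 (adjusted p = 7.23e-07). The remaining fibrillar chains detected were COL11A2, with log2 fold changes of 1.02 and 0.67 that did not pass (edgeR adjusted p = 0.129 and 0.336; the first was 0.27 without gRNA 1 replicate 3 and 1.32, adjusted p = 0.0499, without gRNA 1 replicate 1), and COL3A1, at 0.09 with gRNA 1 and 0.65 with gRNA 10. The COL3A1 call with gRNA 10 (adjusted p = 0.03) was not kept without any 1 of control replicates 1 and 3 or the gRNA 10 replicates (log2 fold change 0.59 to 0.72, adjusted p from 0.055 to 0.108).

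The type IV chains of 22Rv1 rose as neighbours in both expressed pairs. COL4A3 held 61, 82 and 56 counts in controls, 209, 183 and 285 with gRNA 1 and 237, 253 and 227 with gRNA 10 (log2 changes of 1.83 and 1.79, edgeR adjusted p = 7.59e-05 and 9.25e-05). Its head-to-head partner COL4A4 held 32, 32 and 39, then 42, 53 and 63, then 89, 107 and 111 (0.67 and 1.52, adjusted p = 0.0279 and 0.000241). Neither gene's control libraries overlapped with its knockout libraries. COL4A5 held 465, 609 and 547 counts in controls, 1309, 1206 and 1308 with gRNA 1 and 919, 1017 and 1047 with gRNA 10 (log2 changes of 1.29 and 0.82, edgeR adjusted p = 1.32e-05 and 0.000314). COL4A6, across the 346 bases, held 21, 21 and 16, then 67, 41 and 49, then 28, 52 and 31 (1.48 and 0.88, adjusted p = 0.00222 and 0.0407). Both X-linked genes were above controls in 6 of 6 knockout libraries. The weaker call of each pair lay near the threshold and was lost when any 1 of several libraries was left out. COL4A4 with gRNA 1 was not kept without control replicate 1, control replicate 2, gRNA 1 replicate 2 or gRNA 1 replicate 3 (log2 fold change 0.46 to 0.69, adjusted p from 0.0508 to 0.0853). COL4A6 with gRNA 10 was not kept without control replicate 1, 2 or 3 or gRNA 10 replicate 2 or 3 (0.55 to 0.99, adjusted p from 0.0517 to 0.189). COL4A2 went in opposite directions, from 71, 67 and 82 counts to 54, 37 and 29 with gRNA 1 and to 171, 143 and 137 with gRNA 10 (-0.83 and 0.98, adjusted p = 0.00764 and 0.002). Its partner COL4A1 was not detected in 22Rv1, with 0 counts in all 3 controls and at most 8 in a knockout library.

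Among the other classes in 22Rv1, COL6A3 fell and COL28A1 rose with both guides. COL6A3, the long chain of type VI filaments, fell from 56, 47 and 40 counts to 18, 17 and 12 with gRNA 1 and to 6, 3 and 10 with gRNA 10. The groups did not overlap (log2 changes of -1.55 and -2.94, edgeR adjusted p = 0.00167 and 6.34e-05). COL6A1 held 42, 41 and 53 counts in controls, 40, 47 and 197 with gRNA 1 and 16, 10 and 24 with gRNA 10, and neither guide passed (adjusted p = 0.114 and 0.0978). Its gRNA 1 mean rested on replicate 3: without it the log2 fold change was -0.07 in place of 1.16. COL7A1, which forms the anchoring fibrils under epithelia, had the same feature, with 314, 303 and 914 counts under gRNA 1, and did not pass (0.69 and 0.73, adjusted p = 0.169 and 0.165). Without gRNA 1 replicate 3 the first of these was -0.13. COL28A1, a collagen with von Willebrand factor domains, rose from 4, 2 and 7 counts to 21, 22 and 44 and to 37, 34 and 42 (2.77 and 3.03, adjusted p = 0.000827 and 0.000428). Genes within 5 Mb of it had medians of 0.49 and 0.54. COL26A1 went from 37, 32 and 34 counts to 11, 14 and 18 with gRNA 1 and to 91, 89 and 80 with gRNA 10, with no overlap between groups (-1.197 and 1.28, adjusted p = 0.00225 and 0.000544). Its neighbours within 5 Mb had medians of 0.73 and 0.6. COL8A1, a chain of short-chain networks, held 15, 11 and 20 counts in controls and 3, 0 and 1 with gRNA 10, a ratio of 11.9 (95% counting interval 4.36 to 45.7). Genes within 5 Mb of COL8A1 had a median of -0.78 with gRNA 10. COL14A1 rose slightly with gRNA 10 (0.46, adjusted p = 0.00296) and was at 0.13 with gRNA 1. COL12A1 rose with gRNA 1 (1.25, adjusted p = 0.00113) and had 0.45 with gRNA 10. The transmembrane COL25A1 fell with gRNA 10 (-1.04, adjusted p = 0.004) and was at -0.57 with gRNA 1. COL21A1 rose with gRNA 10 (2.26, adjusted p = 0.00022). Its gRNA 1 call (0.95, adjusted p = 0.0465) was not kept without control replicate 2 or 3, gRNA 1 replicate 1 or 3 or any single gRNA 10 replicate (0.73 to 0.95, adjusted p from 0.0636 to 0.16). COL18A1 did not pass (2.34 and 2.53, adjusted p = 0.0695 and 0.0546), with 10, 2 and 42 counts under gRNA 1 against 3, 2 and 6 in controls. Without gRNA 1 replicate 3 the first value was 0.68 (adjusted p = 0.522), and both passed in DESeq2 (adjusted p = 0.022 and 0.0157).

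Of 9 fibroblast markers, 6 were listed in 22Rv1. They summed to 3.69 to 4.73 CPM in controls and 6.19 to 15.9 CPM in knockout libraries. Of the 4 tested, 2 rose and 0 fell with gRNA 1 (48.5% of all genes changed). With gRNA 10, 2 rose and 1 fell (40.6% of all genes changed). ACTA2, a smooth muscle actin, was the only 1 of them to rise with both guides (3.67 and 2.44, edgeR adjusted p = 1.37e-05 and 0.000327). THY1, PDPN and TCF21 were not listed, and DCN did not exceed 3 counts. None of the 6 endothelial markers exceeded 3 counts. Of 7 markers of luminal prostate cells, 5 fell with gRNA 1 and none (0) rose, and 4 fell and 2 rose with gRNA 10. Their sum was 1720 to 1770 CPM in controls and 947 to 1450 CPM in knockout libraries. HOXB13 (-1.28 and -0.59, adjusted p = 1.56e-06 and 0.000369) and FOLH1 (-1.64 and -0.56, adjusted p = 2.54e-06 and 0.0033) were among those that fell with both. Fewer cells of a type and less RNA per cell cannot be told apart in bulk libraries. The part of a change in the mix of cells was not tested.

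**Figure D2:**
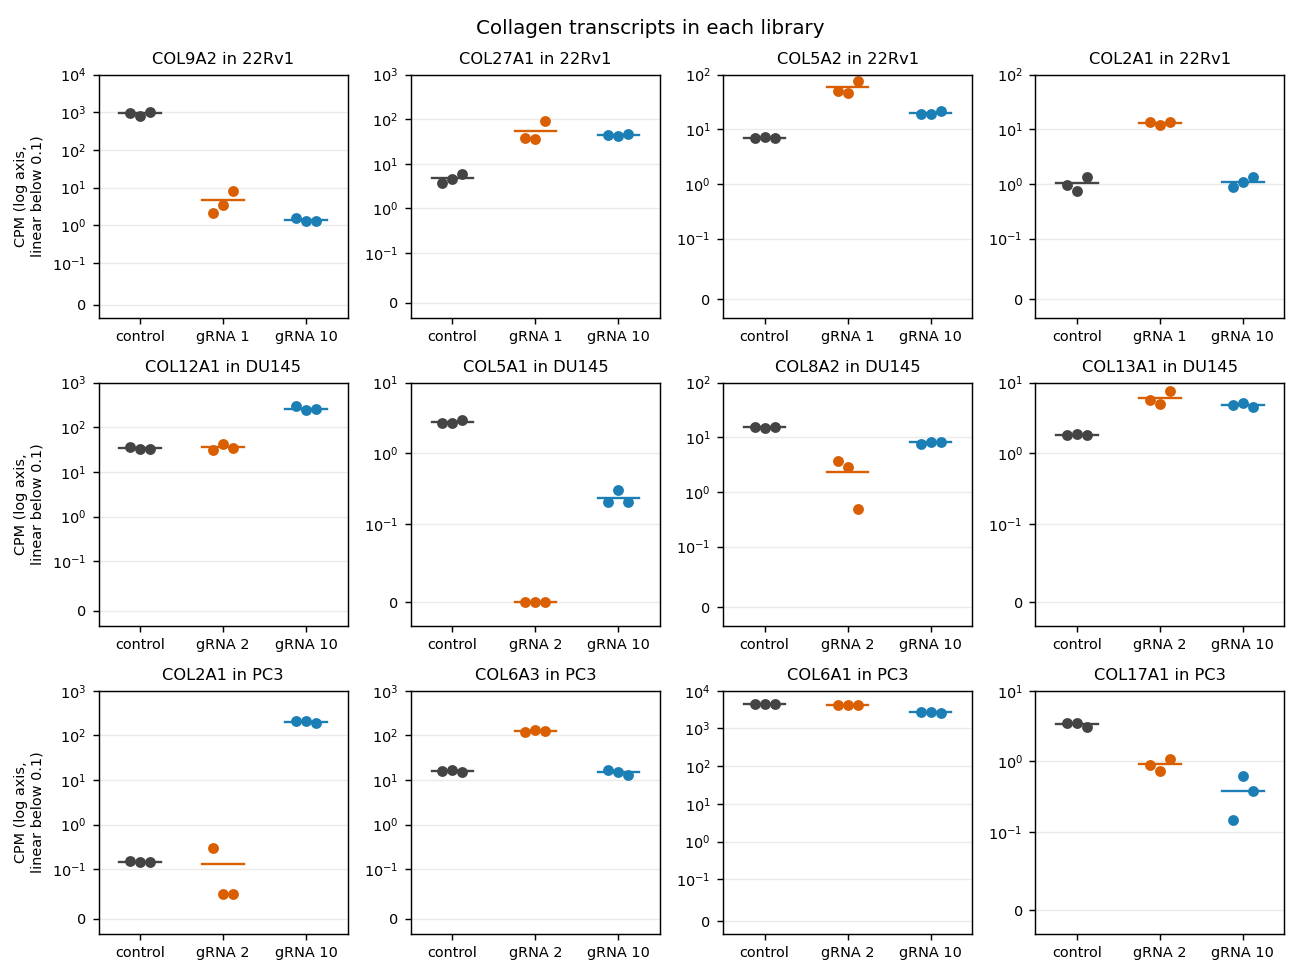
CPM of collagens with large changes in each line, on a log axis that is linear below 0.1, with a point for each library, a line at the group mean and colours for control and guides. In 22Rv1 every knockout library lies below the controls for COL9A2 and above them for COL27A1.

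In DU145 few collagens moved together with both guides: COL13A1 rose with both, and COL5A1 fell with both. With gRNA 2, 10 of 25 tested collagens changed where 34% of all genes did, 2 higher (17.1%) and 8 lower (17%). With gRNA 10, 13 changed where 40% of all genes did, 10 higher (20.2%) and 3 lower (19.8%). Without gRNA 2 replicate 3 the counts were 14 and 19. The guides differed from each other at 15 collagens where 38.8% of all genes differed, and 13 were higher with gRNA 10 (19.6%). The median log2 fold change over the 25 was -0.32 with gRNA 2 and 0.02 with gRNA 10, beside 0.01 and 0.00092 over all genes. A change of more than 1 on the log2 scale was seen in 24% and 28% of collagens (9.83% and 11.6% of all genes). Only 1 collagen rose with both guides (8.05% of all genes did) and 1 fell with both (8.02%), while 3 moved in opposite directions (2.4%): COL11A2, COL28A1 and COL4A1. All 6 knockout libraries lay above all 3 control libraries at 1 collagen (13.5% of all genes) and below them at 3 (14.4%).

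COL5A1 (chr9:134641774-134844843, plus strand) held 56, 56 and 61 counts in the DU145 controls, 0 in all 3 libraries of gRNA 2 and 4, 6 and 4 with gRNA 10. With gRNA 2 it was at least 18.1-fold lower, using a floor of 3 counts per library. With gRNA 10 it fell by 3.54 ± 0.28 on the log2 scale (edgeR adjusted p = 2.96e-05). Genes within 5 Mb of COL5A1 had medians of 0.01 and -0.10 (119 genes). Its partner COL5A2 held 342, 358 and 385 counts in controls, 99, 116 and 36 with gRNA 2 and 364, 356 and 323 with gRNA 10. Only the gRNA 2 libraries were lower (-2.05 ± 0.27, adjusted p = 0.000346, against -0.0031 ± 0.24, adjusted p = 0.993, with gRNA 10), and the guides differed (adjusted p = 0.000259). COL13A1, a transmembrane collagen of cell adhesion sites, rose from 38, 39 and 37 counts to 114, 101 and 136 and to 96, 102 and 89. Its groups were well apart (log2 changes of 1.71 and 1.38, edgeR adjusted p = 0.000144 and 0.000309).

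COL12A1 (chr6:75084326-75206051, minus strand), which links fibrils to other matrix, was the largest single-guide rise in DU145. Counts were 746, 682 and 680 in controls, 629, 866 and 610 with gRNA 2 and 5809, 4829 and 5094 with gRNA 10. The gRNA 10 libraries lay several times above all others (2.95 ± 0.13, edgeR adjusted p = 1.85e-07), while gRNA 2 overlapped with the controls (0.08 ± 0.12, adjusted p = 0.662). The guides differed by 2.88 ± 0.12 (adjusted p = 2.44e-07). Genes within 5 Mb had a median of 0.10 with gRNA 10. At 21.04 CPM per kb with gRNA 10, COL12A1 came second to COL18A1 (53.94) in that group, where it had been at 2.715 in controls. COL27A1 likewise rose with gRNA 10, from 87, 104 and 97 counts to 282, 286 and 324 (1.68 ± 0.14, adjusted p = 1.13e-05), and held 93, 118 and 104 with gRNA 2. COL1A1 held 288, 290 and 271 counts in controls, 244, 191 and 99 with gRNA 2 and 474, 599 and 508 with gRNA 10. Its gRNA 10 libraries were all highest (0.95, adjusted p = 0.00554), and gRNA 2 did not pass (-0.60, adjusted p = 0.0601). COL8A2, a chain of the short-chain network under the corneal endothelium, held 324, 314 and 321 counts in controls, 74, 58 and 9 with gRNA 2 and 152, 164 and 166 with gRNA 10. Every knockout library was below the controls (-2.70 and -0.94, adjusted p = 0.000648 and 0.0526), although the second did not pass. It passed with only the groups compared (adjusted p = 1.48e-08), in DESeq2 (adjusted p = 0.0455) and without any single gRNA 2 library (adjusted p from 1.81e-06 to 0.0442).

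The basement membrane genes of DU145 separated by pair with gRNA 10, where COL4A4 did not pass. With gRNA 2 their values all lay below 0, and 1 of the 4 tested, COL4A1, passed. COL4A1 held 2437, 2291 and 2458 counts in controls, 1754, 1887 and 1298 with gRNA 2 and 3868, 4070 and 3925 with gRNA 10 (log2 changes of -0.47 and 0.78, edgeR adjusted p = 0.00426 and 0.000139). COL4A2 held 4722, 4682 and 4939, then 4562, 4202 and 2955, then 7232, 8154 and 7666 (-0.22 and 0.74, adjusted p = 0.154 and 0.000549). With gRNA 10 both were above every control. COL4A3 held 209, 171 and 205 counts in controls, 184, 255 and 64 with gRNA 2 and 53, 53 and 46 with gRNA 10, and fell with gRNA 10 (-1.89, adjusted p = 0.00231; gRNA 2 -0.16, adjusted p = 0.732). COL4A4 held 622, 597 and 497, then 479, 631 and 197, then 349, 307 and 345, and did not pass (-0.34 and -0.72, adjusted p = 0.379 and 0.0639). All 3 gRNA 10 libraries of COL4A3 and of COL4A4 were below the controls. COL4A5 and COL4A6 did not exceed 3 counts in DU145.

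The abundant chains COL18A1, COL6A1 and COL6A2 moved little in DU145. COL18A1 held 11855, 11304 and 12947 counts in controls, 12282, 9679 and 8454 with gRNA 2 and 8052, 10249 and 9260 with gRNA 10. Its log2 fold changes of -0.17 ± 0.13 and -0.34 ± 0.13 did not pass (edgeR adjusted p = 0.324 and 0.0562). The second passed with only the groups compared (adjusted p = 0.00211) and in DESeq2 (adjusted p = 0.0396). COL6A1 held 2938, 2888 and 2940, then 2775, 2432 and 1876, then 2051, 2356 and 2177 (-0.23 and -0.36, adjusted p = 0.105 and 0.0181). With gRNA 10 the call was not kept without control replicate 1 or 3 or gRNA 10 replicate 1 or 3 (-0.32 to -0.36, adjusted p from 0.0534 to 0.0759). COL6A2 held 2183, 1982 and 2116, then 1996, 1579 and 1334, then 1909, 2171 and 2036, and did not pass (-0.28 and 0.02, adjusted p = 0.0797 and 0.926). COL6A1, COL6A2 and COL18A1 lie in 1 region of chromosome 21, whose 46 tested genes had a median of -0.43 with gRNA 10. The ratio of COL6A1 to COL6A2 per kb was 1.41 ± 0.0568 in controls, 1.46 ± 0.083 with gRNA 2 and 1.09 ± 0.00786 with gRNA 10 (SD, n = 3).

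Lower collagens of DU145 split by guide. COL11A2, a fibrillar chain, held 129, 114 and 118 counts in controls, 88, 81 and 73 with gRNA 2 and 215, 222 and 216 with gRNA 10, with no overlap between groups (log2 changes of -0.50 and 0.91, edgeR adjusted p = 0.0123 and 0.000201). Without control replicate 1 the first was -0.45 (adjusted p = 0.0597). COL28A1 held 24, 26 and 22, then 4, 9 and 4, then 53, 35 and 47 (-1.98 and 0.96, adjusted p = 0.00186 and 0.0116), and the second call was not kept without gRNA 10 replicate 1 (0.82, adjusted p = 0.057). COL17A1, the hemidesmosome collagen, rose with gRNA 2 from 103, 104 and 81 to 170, 165 and 175 counts (0.91, adjusted p = 0.00321) and was at -0.26 with gRNA 10. COL26A1 rose with gRNA 10 from 4, 10 and 6 to 20, 32 and 32 counts (2.10, adjusted p = 0.00164). COL9A3, which was not detected at 1 CPM, held 17, 11 and 12 counts in controls and 2, 1 and 0 with gRNA 2, a ratio of 12.6 (95% counting interval 4.01 to 63.7). COL9A2 fell with gRNA 2 (-0.89, adjusted p = 0.0222), a call not kept without any single control replicate (-0.94 to -0.87, adjusted p from 0.0503 to 0.0669). COL14A1 rose with gRNA 10 (1.74, adjusted p = 0.0147), except without control replicate 2 (1.65, adjusted p = 0.059) or gRNA 10 replicate 1 (1.57, adjusted p = 0.0597). COL16A1 (0.49 and 0.49) and COL7A1 (-0.42 and -0.12) passed with neither guide. Fibroblast markers summed to 2.93 to 3.37 CPM in controls and 2.16 to 3.9 CPM in knockout libraries, with THY1 and PDPN not listed and DCN and PRRX1 never above 3 counts. Endothelial markers summed to 0.383 to 0.768 CPM in controls and 0.166 to 2.74 CPM in knockout libraries. KDR rose with both guides (2.13 and 3.76, adjusted p = 0.0462 and 0.000693) and VWF with gRNA 10 (2.05, adjusted p = 0.0267), while TEK and CLDN5 did not exceed 3 counts. Their part in the collagen values was not tested.

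In PC3 the type VI filament genes stayed the most abundant, but their balance shifted, and type IV genes went opposite ways with the guides. With gRNA 2, 23 of 29 tested collagens changed where 63.6% of all genes did, 16 higher (32.1%) and 7 lower (31.5%). With gRNA 10, 26 changed where 73.5% did, 15 higher (37.9%) and 11 lower (35.6%). Both guides raised 10 (17.9% of all genes): COL12A1, COL13A1, COL16A1, COL18A1, COL1A1, COL4A3, COL4A4, COL5A1, COL7A1 and COL8A2. Both lowered 5 (16.3%): COL17A1, COL27A1, COL3A1, COL5A3 and COL6A1. Opposite directions were seen in 6 (15.5%): COL4A1, COL4A2, COL4A5, COL4A6, COL5A2 and COL8A1. All 6 knockout libraries lay above all 3 control libraries at 9 collagens (18.5% of all genes) and below them at 4 (17.3%). The guides differed from each other at 23 of the 29 (73.4% of all genes). The median log2 fold change was 0.52 with gRNA 2 and 0.22 with gRNA 10, beside 0.01 and 0.01 over all genes. A change of more than 1 on the log2 scale was seen in 31% and 27.6% of collagens (11.1% and 17.4% of all genes).

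COL6A1 held 89577, 92221 and 91510 counts in the PC3 controls, 83055, 86976 and 87270 with gRNA 2 and 56160, 55800 and 54945 with gRNA 10. The gRNA 10 libraries were all lowest (log2 fold change -0.76 ± 0.03, edgeR adjusted p = 4.65e-19). With gRNA 2 the change was -0.10 ± 0.03 (adjusted p = 0.00822), which was not kept without gRNA 2 replicate 1 (-0.08, adjusted p = 0.0679). COL6A2 held 57280, 55187 and 56835, then 54712, 56231 and 56830, then 43696, 42304 and 42551 (-0.03 and -0.44, adjusted p = 0.492 and 2.53e-13). It was lower with gRNA 10 alone. COL6A3 (chr2:237324003-237414375, minus strand) held 311, 336 and 299 counts in controls, 2441, 2722 and 2548 with gRNA 2 and 339, 319 and 267 with gRNA 10. Every gRNA 2 library was several times above the rest (3.01 ± 0.06, adjusted p = 5.46e-24, against -0.08 ± 0.08, adjusted p = 0.395, with gRNA 10). The 60 tested genes within 5 Mb of COL6A3 had a median of -0.42 with gRNA 2. COL6A1 exceeded COL6A3 per kb by a ratio of 1060 ± 58 in controls, 123 ± 4.65 with gRNA 2 and 669 ± 77.3 with gRNA 10 (SD, n = 3). The ratio of COL6A1 to COL6A2 was 1.63 ± 0.0543, 1.55 ± 0.0146 and 1.31 ± 0.0181. Summed collagen CPM was 8690 ± 28.5 in controls, 8562 ± 213 with gRNA 2 and 6426 ± 86.8 with gRNA 10.

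COL2A1 (chr12:47972965-48004554, minus strand) went from near absence to abundance with gRNA 10 in PC3. It held 3, 3 and 3 counts in controls, 6, 1 and 1 with gRNA 2 and 4313, 4291 and 4040 with gRNA 10. The ratio to controls was 1360 (95% counting interval 716 to 2970). At 30.46 CPM per kb it was then below only 3 other collagens in that group, COL6A1 (501.5), COL6A2 (383.2) and COL5A2 (104.2). Genes within 5 Mb of it had a median log2 fold change of 0.16.

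Fibril chains of PC3 moved in both directions. COL5A2 held 14135, 14310 and 14570 counts in controls, 9857, 9976 and 10093 with gRNA 2 and 15352, 16759 and 16254 with gRNA 10 (log2 changes of -0.54 and 0.12, edgeR adjusted p = 2.04e-14 and 0.00222). Its 25 tested neighbours within 5 Mb had a median of -0.51 with gRNA 2. COL5A1 held 859, 880 and 896, then 1443, 1503 and 1583, then 1181, 1084 and 991, and rose with both (0.77 and 0.26, adjusted p = 4.69e-13 and 0.000175). Neither of these genes had overlapping groups. COL3A1, the type III chain, held 725, 726 and 741 counts in controls, 216, 266 and 275 with gRNA 2 and 344, 377 and 396 with gRNA 10. All knockout libraries were lower (-1.55 ± 0.07 and -1.02 ± 0.07, adjusted p = 8.69e-18 and 2.07e-14). The neighbours of COL3A1 likewise had a median of -0.51 with gRNA 2, and of -0.03 with gRNA 10. COL1A1 held 532, 558 and 567, then 905, 1028 and 1061, then 1157, 1154 and 1060, and rose with both (0.84 and 0.98, adjusted p = 3.21e-13 and 3.49e-15). COL11A2 rose with gRNA 10 (0.72, adjusted p = 0.000197) and was at -0.31 with gRNA 2. COL27A1 fell with gRNA 2 (-0.37, adjusted p = 6.35e-05). With gRNA 10 it was at -0.18 (adjusted p = 0.0254), a call not kept without control replicate 1 or 2 or gRNA 10 replicate 3 (-0.16 to -0.13, adjusted p from 0.0737 to 0.145).

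The chains that tie epithelium to its basement membrane also shifted in PC3. COL17A1 fell from 70, 70 and 61 counts to 18, 15 and 22 with gRNA 2 and to 3, 13 and 8 with gRNA 10, with no overlap (log2 changes of -1.88 and -3.09, edgeR adjusted p = 1.03e-08 and 8.14e-12). COL7A1 rose from 156, 171 and 156 to 367, 446 and 410 and to 521, 521 and 517 (1.33 and 1.64, adjusted p = 1.07e-14 and 1e-17), also without overlap. COL18A1 rose from 2152, 2116 and 2207 counts to 4164, 4306 and 4305 and to 3088, 3059 and 3001 (0.97 and 0.45, adjusted p = 7.35e-20 and 4.61e-12). The multiplexin thus rose in every knockout library. COL13A1 held 1784, 1785 and 1771, then 2338, 2319 and 2400, then 2376, 2404 and 2223 (0.39 and 0.34, adjusted p = 1.26e-09 and 9.93e-09). COL16A1, a fibril-associated chain, held 84, 81 and 74, then 121, 146 and 130, then 140, 129 and 141 (0.72 and 0.73, adjusted p = 4.89e-06 and 2.43e-06). Both were higher in 6 of 6 knockout libraries. Genes within 5 Mb of COL16A1 had medians of 0.46 and 0.52. COL12A1 rose with gRNA 2, from 1249, 1399 and 1225 to 2658, 2890 and 2715 counts (1.08, adjusted p = 1.23e-06). Its gRNA 10 value of 0.22 (adjusted p = 0.0496) was not kept without control replicate 1 or 3, gRNA 2 replicate 1 or 3, or gRNA 10 replicate 1 or 2 (0.13 to 0.21, adjusted p from 0.0767 to 0.146).

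In PC3 all 6 type IV chains rose with gRNA 2 (32.1% of all genes did), and 4 of them fell with gRNA 10 (35.6% of all genes did). COL4A1 held 635, 677 and 683 counts in controls, 1137, 1121 and 1175 with gRNA 2 and 424, 393 and 347 with gRNA 10 (log2 changes of 0.77 and -0.82, edgeR adjusted p = 3.04e-13 and 1.09e-12). COL4A2 held 2049, 2042 and 1936, then 2906, 2808 and 2999, then 1967, 1885 and 1942 (0.52 and -0.10, adjusted p = 1.92e-12 and 0.0266). The ratio of COL4A2 to COL4A1 per kb was 2.31 ± 0.15 in controls, 1.94 ± 0.0217 with gRNA 2 and 3.83 ± 0.392 with gRNA 10. COL4A5 held 1096, 1147 and 1192, then 1699, 1717 and 1722, then 816, 843 and 832 (0.57 and -0.51, adjusted p = 1.31e-12 and 4.49e-11). COL4A6 held 130, 153 and 172, then 292, 259 and 277, then 112, 137 and 116 (0.85 and -0.36, adjusted p = 6.79e-09 and 0.00534). The gRNA 2 libraries of these 4 genes were above all others. COL4A3 was near the floor in controls, with 3, 2 and 3 counts, and held 31, 36 and 27 with gRNA 2, a ratio of 11.6 (95% counting interval 5.67 to 27.7), and 7, 10 and 8 with gRNA 10. COL4A4 held 2, 1 and 1, then 23, 32 and 34, a ratio of 22 (8.31 to 82.7), then 4, 6 and 5. Both low genes passed with gRNA 10 as well (edgeR adjusted p = 0.00696 and 0.0207). Calls with gRNA 10 that were lost when 1 library was left out were COL4A2, not kept without control replicate 1 or 2 or gRNA 10 replicate 2 (-0.10 to -0.09, adjusted p from 0.0765 to 0.093), and COL4A6, not kept without control replicate 3 (-0.27, adjusted p = 0.059). The COL4A4 call was not kept without control replicate 2 or 3 or gRNA 10 replicate 2 (1.61 to 1.62, adjusted p from 0.0636 to 0.0642).

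**Figure D3:**
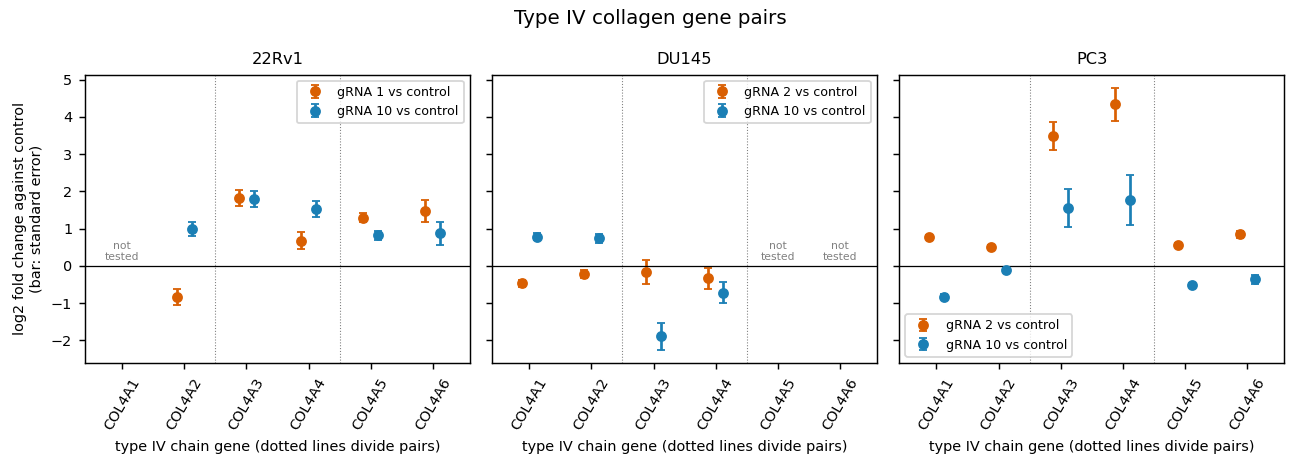
Log2 fold changes of the 3 head-to-head type IV gene pairs with each guide in each line, with bars for the standard error. Partners mostly lie on the same side of 0, with COL4A3 and COL4A4 above it in 22Rv1 and below it with gRNA 10 in DU145.

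The remaining detected collagens of PC3 were low. COL8A1 held 27, 23 and 29 counts in controls, 30, 47 and 51 with gRNA 2 and 17, 17 and 7 with gRNA 10 (log2 changes of 0.68 and -0.99, edgeR adjusted p = 0.0127 and 0.00471). With gRNA 2 the call was not kept without control replicate 2 or gRNA 2 replicate 2 or 3 (0.53 to 0.61, adjusted p from 0.0543 to 0.0813). COL9A2 rose with gRNA 10 from 41, 31 and 40 to 93, 55 and 99 counts (1.09, adjusted p = 7.81e-05) and was at 0.44 with gRNA 2. Genes within 5 Mb of COL9A2 had medians of 0.52 (gRNA 2) and 0.45 (gRNA 10), and those near COL24A1 0.52 and 0.44. COL24A1 was at 0.45 with gRNA 2 and 0.79 with gRNA 10 (adjusted p = 0.191 and 0.0139), the latter not kept without control replicate 1 or 2 (0.58 and 0.62, adjusted p = 0.0904 and 0.0773) and at 1.27 without control replicate 3. COL21A1 with gRNA 2 (-0.79, adjusted p = 0.029) was not kept without control replicate 2 or 3 or gRNA 2 replicate 1 or 2 (-0.77 to -0.58, adjusted p from 0.0629 to 0.139). COL9A3 passed with neither guide (-0.46 and -0.26). Fibroblast markers summed to 12.2 to 13.8 CPM in controls and 1.84 to 22.8 CPM in knockouts, while LUM, DCN and THY1 did not exceed 3 counts and TCF21 was not listed. PDGFRA fell with both (-2.99 and -4.35, adjusted p = 8.67e-18 and 4e-20), and PDPN rose with gRNA 2 and fell with gRNA 10 (5.33 and -4.50, adjusted p = 2.54e-23 and 2.42e-06). Endothelial markers summed to 2.98 to 3.73 CPM against 21.3 to 53.1 CPM, mainly from KDR (3.35 and 5.10, adjusted p = 4.88e-20 and 9.73e-28) and PECAM1 (2.28 and 1.89, adjusted p = 9.01e-15 and 1.23e-12). CDH5, VWF and TEK of the same list did not exceed 3 counts. The part of either list in the collagen values was not tested.

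**Figure D4:**
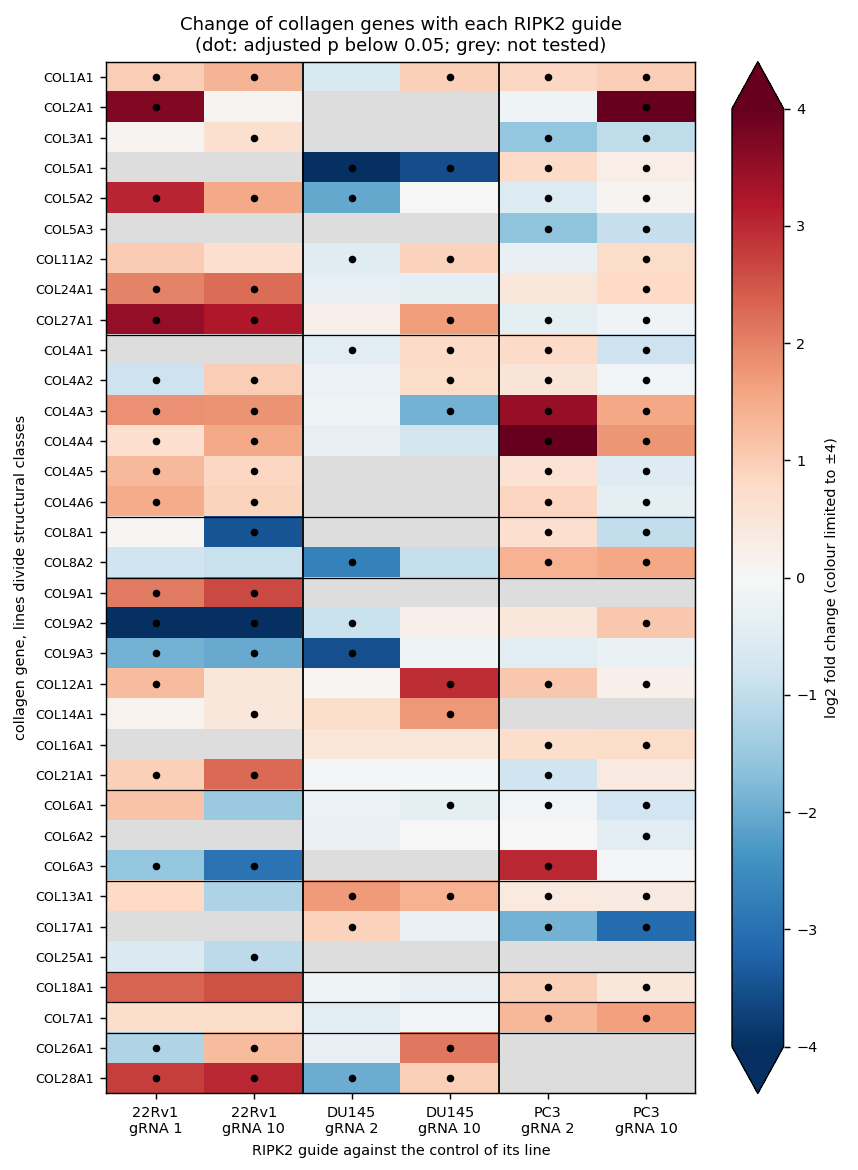
Log2 fold change against the control of the line for each tested collagen (rows, divided by structural class) and each guide (columns), as a colour limited to 4 in either direction. A dot marks an adjusted p below 0.05 and grey a gene not tested. COL9A2 in 22Rv1, COL2A1 in PC3 with gRNA 10, COL5A1 in DU145 with gRNA 2 and COL4A4 in PC3 with gRNA 2 reach the ends of the colour scale.

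The lines were then compared in the change itself, as the mean of both guides against control in 1 fit. The change differed between 22Rv1 and DU145 at 16 of 33 collagens (background 47.1%), between 22Rv1 and PC3 at 15 (45.3%) and between DU145 and PC3 at 16 (42.2%), shares close to those of all genes. COL9A2 fell by 8.51 on the log2 scale in 22Rv1 and was at 0.77 in PC3, a difference of -9.26 (edgeR adjusted p = 1.08e-15). COL27A1 was at 3.37 in 22Rv1 and -0.27 in PC3 (difference 3.66, adjusted p = 1.2e-10). COL5A2 was at 2.29 in 22Rv1 and -1.02 in DU145 (difference 3.31, adjusted p = 2.02e-11). Of the 17 collagens tested in every line, 5 were called higher in at least 4 of the 6 comparisons of a guide with its control, as were 6.05% of the 12800 genes tested in every line: COL12A1, COL13A1, COL1A1, COL4A3 and COL4A4. COL1A1 was higher in 5 of 6, and its value in the sixth, DU145 gRNA 2, was -0.60 (edgeR adjusted p = 0.0601). COL4A3 was called lower in 1, DU145 gRNA 10. COL12A1 and COL4A4 reach 4 only with calls near the threshold that were lost when any 1 of several libraries was left out (above). None of the 17 (0) was called lower in at least 4 (6.48% of genes), and 8 were called in both directions (56.1% of genes): COL11A2, COL21A1, COL27A1, COL4A2, COL4A3, COL5A2, COL8A2 and COL9A2. Comparisons of 1 line share their controls.

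**Figure D5:**
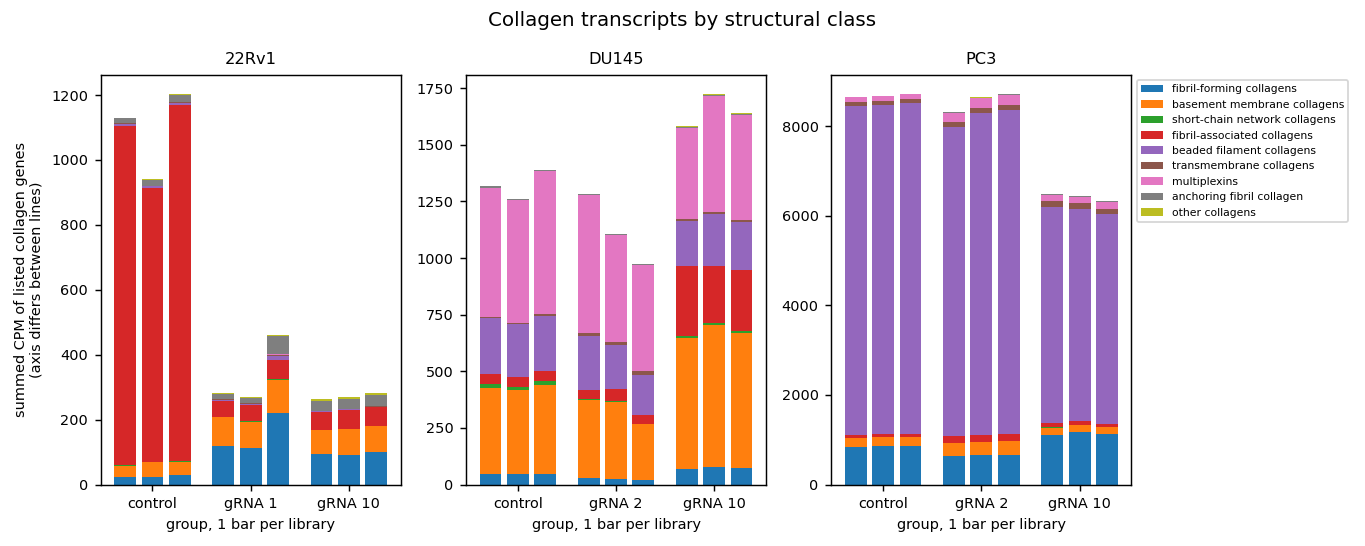
Summed CPM of all listed collagens in every library, as a stacked bar coloured by structural class, with an axis of its own for each line. Fibril-associated chains, which include COL9A2, make up most of the 22Rv1 control bars, and beaded filament chains most of the PC3 bars.

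Genes that modify, secrete and cross-link collagen, and its receptors and proteases, were counted in the same fits. Of all genes, 48.5% and 40.6% were called with the guides of 22Rv1 (gRNA 1, then gRNA 10), 34% and 40% with those of DU145 (gRNA 2, then gRNA 10) and 63.6% and 73.5% with those of PC3, and a list whose share is near these shows nothing of its own. Of 14 genes for hydroxylation and glycosylation of the chains, 5 rose and 3 fell in 22Rv1 with gRNA 1 and 7 and 0 with gRNA 10. In DU145 4 rose and 6 fell with gRNA 2 and 7 and 1 with gRNA 10, and in PC3 10 and 4, then 5 and 7. P4HA2, a prolyl hydroxylase subunit, rose in PC3 (log2 changes of 0.92 and 1.196, edgeR adjusted p = 1.15e-13 and 4.45e-17), and also in DU145 (0.37 and 0.62, adjusted p = 0.043 and 0.00318). The alternative subunit P4HA1 rose in DU145 (0.38 and 1.23, adjusted p = 0.00369 and 1.92e-06) but fell in PC3 (-0.59 and -1.04, adjusted p = 1.25e-13 and 1.06e-19), as did their partner P4HB (-0.26 and -0.71, adjusted p = 1.88e-07 and 1.68e-17). For folding and export (10 genes), 5 rose and 1 fell, then 3 and 2 in 22Rv1. The counts were 3 and 1, then 2 and 1 in DU145, and 1 and 6, then 2 and 5 in PC3. The collagen chaperone SERPINH1 rose in 22Rv1 (1.08 and 0.78, adjusted p = 0.00018 and 0.00164) and fell with gRNA 10 in PC3 (-0.80, adjusted p = 6.26e-16). The 7 of 10 called with each guide in PC3 compare with 63.6% and 73.5% of all genes. FKBP10, a prolyl isomerase of the same compartment, rose in DU145 (0.97 and 0.88, adjusted p = 2.61e-05 and 2.74e-05) and fell in PC3 (-0.71 and -0.42, adjusted p = 5.97e-16 and 5.58e-11).

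Against the same shares of all genes (48.5% and 40.6%, 34% and 40%, 63.6% and 73.5%), of the cross-linking enzymes tested, 2 rose and 2 fell, then 1 and 1 of 5 in 22Rv1, 2 and 1, then 3 and 0 of 6 in DU145, and 5 and 1, then 3 and 3 of 6 in PC3. LOXL2, a lysyl oxidase, rose in PC3 (log2 changes of 1.59 and 0.30, edgeR adjusted p = 4.27e-23 and 2.56e-06) and DU145 (0.40 and 0.71, adjusted p = 0.0122 and 0.000335). TGM2, a transglutaminase, fell in 22Rv1 (-0.81 and -2.69, adjusted p = 0.00934 and 1.18e-05) and rose in DU145 (2.19 and 0.94, adjusted p = 6.76e-06 and 0.00062). In PC3 it rose with gRNA 2 and fell with gRNA 10 (2.57 and -1.01, adjusted p = 3.02e-29 and 2.64e-17). For procollagen cleavage, 3 rose and 1 fell, then 4 and 2 of 7 in 22Rv1, 1 and 1, then 2 and 1 of 5 in DU145, and 3 and 0, then 1 and 2 of 6 in PC3. Among 8 collagen receptors tested in each line, 4 rose and 3 fell, then 3 and 2 in 22Rv1, 1 and 1, then 3 and 1 in DU145, and 5 and 2, then 2 and 3 in PC3. In 22Rv1 the integrin gene ITGA1 rose (1.85 and 2.29, adjusted p = 4.32e-05 and 1.01e-05) and ITGA11 fell (-3.46 and -3.29, adjusted p = 0.000112 and 0.000131). In DU145 both rose with gRNA 10 (1.66 and 2.92, adjusted p = 0.00155 and 0.000451).

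Collagen-degrading proteases were sparse, again beside 48.5% and 40.6%, 34% and 40%, and 63.6% and 73.5% of all genes called: 3 were tested in 22Rv1 (0 rose and 1 fell with each guide), 3 in DU145 (0 and 1 with each) and 5 in PC3 (2 and 1, then 2 and 3). MMP14, a membrane collagenase, fell in 22Rv1 (log2 changes of -2.37 and -3.81, edgeR adjusted p = 2.18e-05 and 1.53e-06) and rose in PC3 (0.52 and 0.67, adjusted p = 5.33e-13 and 4.11e-16). In DU145 it was at -0.26 with gRNA 2 (adjusted p = 0.168) and fell by 2.84 with gRNA 10 (adjusted p = 1.01e-06). Other proteases of the list did not all follow MMP14 in PC3. MMP1 fell with both guides (-0.57 and -1.93, adjusted p = 1.77e-11 and 2.57e-23). MMP13 was slightly higher with gRNA 2 (0.18, adjusted p = 0.00438) and fell with gRNA 10 (-2.19, adjusted p = 1.24e-22). MMP2 was at 0 CPM in controls and rose to 0.79 CPM with gRNA 10 (adjusted p = 7.67e-08). CTSK fell with gRNA 10 (-0.36, adjusted p = 0.0483). Of the TGF-beta ligands, receptors and targets, against those shares of all genes, 7 rose and 2 fell, then 4 and 2 of 12 in 22Rv1, 4 and 1, then 4 and 3 of 12 in DU145, and 8 and 2, then 6 and 5 of 11 in PC3. TGFB2, a ligand that induces collagen genes in many cells, fell in DU145 (-2.19 and -3.10, adjusted p = 0.000344 and 3.61e-05) and rose in PC3 (3.43 and 2.85, adjusted p = 2.03e-16 and 6.5e-14). In 22Rv1 it rose with gRNA 1 (1.74, adjusted p = 0.00868). TGFB1 rose in 22Rv1 (2.28 and 2.05, adjusted p = 0.000164 and 0.000355) and fell slightly in PC3 (-0.19 and -0.16, adjusted p = 3.5e-05 and 0.000348). Its target CCN2 rose in 22Rv1 (4.88 and 2.28, adjusted p = 9.99e-09 and 3.91e-06) and PC3 (1.4 and 0.18, adjusted p = 6.9e-22 and 0.00139), and in DU145 rose with gRNA 2 and fell with gRNA 10 (1.301 and -0.89, adjusted p = 0.00258 and 0.0163).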

How the data were processed

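Bulk RNA-seq read counts of 27 libraries (3 lines, 3 groups of 3 libraries each) were analysed. The values are raw counts per gene symbol, deposited by the authors as 1 table for each line, per the file headers and the whole numbers in them. The submitters' processing notes name hg38, FastQC, STAR and edgeR without versions or roles. Libraries were strand-specific per the labels' protocols, and the counting strand and annotation are not given in the sources used here. Library totals lay between 17958558 and 20650819 counts. The floor (3 counts in a library) and the 95% intervals cover counting error only.

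Each line was fitted alone with edgeR 4.0.16 (R 4.3.3, limma 3.58.1): filterByExpr (minimum count 10, minimum total 15), TMM scaling, robust quasi-likelihood tests, all 9 libraries, group as the only term, Benjamini-Hochberg over all genes tested at 0.05. Lines were compared in 1 fit of all 27 libraries over 16322 of the 20089 symbols shared by the 3 tables. Levels are TMM-scaled CPM, divided by the GENCODE 29 exon union in kb where genes are compared. Neighbours of a collagen are the tested protein-coding genes within 5 Mb, other collagens left out. Their median log2 fold change exceeded 0.3 in either direction at 6 of 28 collagens with each guide of 22Rv1. In DU145 it did so at 1 (gRNA 2) and 6 (gRNA 10) of 25, and in PC3 at 10 and 5 of 29. The part of such regional shifts in the collagen values was not tested. Figures used Python 3.11.15 and matplotlib 3.10.9. Alternatives were RLE scaling, no filter, at least 10 counts in every library, only the groups compared, a replicate block, DESeq2 1.42.0 and leaving out each library.

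The members and gene lists were chosen with earlier results of these data known. Every collagen with a group mean of at least 1 CPM is named with values. Counts per library are given for up to 6 per line changed in 1 direction with both guides (group mean of at least 30 counts, no overlap), up to 3 in opposite directions, and partner chains. Those of COL2A1, COL12A1, COL14A1, COL17A1, COL18A1 and other genes outside that rule were chosen after their values were seen. Of each list of other pathway genes, up to 2 per line were eligible by name, and some of these are shown. Other genes of these lists were named outside that rule with their values known. Among them are P4HB, HOXB13, PDPN and VWF. Genes eligible in 1 line, such as P4HA1, MMP14, TGM2, TGFB1, TGFB2, CCN2 and ITGA11, were also named in lines where they were not eligible.

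On simulated data with 200 genes changed 1.5-fold, the test recovered 22.5% (22Rv1 gRNA 1, 14540 genes), 32.5% (DU145 gRNA 2, 14453 genes) and 85% (PC3 gRNA 2, 14070 genes). False calls made up 4.26%, 8.45% and 11.5% of calls. Promoter entries were not used for COL14A1, COL1A1, COL1A2, COL20A1, COL22A1, COL2A1, COL3A1, COL5A2, COL6A1, COL6A5, COL8A1 and COL9A3.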

Additional observations from a re-analysis of the deposited data

Results flagged for a closer look

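The change with RIPK2 guides, taken as the mean of both guides against the control of the line, was tested for a difference between lines in the fit of all libraries. It differed at 16 of 33 collagens between 22Rv1 and DU145 (47.1% of all genes), at 15 between 22Rv1 and PC3 (45.3%) and at 16 between DU145 and PC3 (42.2%). These shares are close to those of all genes. The genes below also passed with opposite signs in the lines.

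Between 22Rv1 and DU145, COL4A3 was at 1.81 and -1.026 on the log2 scale, a difference of 2.835 (edgeR adjusted p = 1.12e-07), and COL5A2 at 2.29 and -1.025, a difference of 3.312 (adjusted p = 2.02e-11). The DU145 value of COL5A2 came from gRNA 2, and that of COL4A3 from gRNA 10. Between 22Rv1 and PC3, COL27A1 was at 3.367 and -0.273 (difference 3.658, adjusted p = 1.2e-10). COL5A2 was at 2.29 and -0.2074 (difference 2.515, adjusted p = 5.78e-10), and its PC3 value averages guides that moved in opposite directions. COL9A2 was at -8.51 and 0.7681 (difference -9.263, adjusted p = 1.08e-15).

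Between DU145 and PC3, COL27A1 was at 0.9481 and -0.273 (difference 1.239, edgeR adjusted p = 0.00126), and COL4A3 at -1.026 and 2.518 (difference -3.527, adjusted p = 6.08e-05). The DU145 value of COL27A1 came from gRNA 10 (1.68, against 0.21 with gRNA 2). COL4A3 held 3, 2 and 3 counts in PC3 controls, so its PC3 value depends on few counts. COL8A2 was at -1.82 and 1.469 (difference -3.272, adjusted p = 5.14e-05). Its DU145 values were -2.70 with gRNA 2 and -0.94 with gRNA 10, and the second did not pass. In PC3 COL8A2 was not detected at 1 CPM, and genes within 5 Mb of it had medians of 0.47 (gRNA 2) and 0.55 (gRNA 10). COL5A1 was at -6.174 and 0.5131 (difference -6.629, adjusted p = 3.84e-11). The DU145 value of COL5A1 is a fitted one that includes the 3 libraries at 0 counts, and no bound can be read from it. Groups of 3 are too small for a formal test of single outlying libraries, and counts without each library are given below.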

How the results depend on the processing

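Of 148 changes of named collagens, 104 were called, and 85 of these kept their direction and their side of the threshold under every alternative. None of the 104 (0) reversed. Counts of changed collagens moved by over 1.5 times under 1 setting, at least 10 counts in every library, which tests fewer genes: DU145 gRNA 2 went from 10 to 6, the control comparisons to 8 (22Rv1 and DU145), 9 (22Rv1 and PC3) and 8 (DU145 and PC3), and the comparisons of knockout effects to 6, 3 and 6 in the same order. Leaving out 1 library gave 15 to 21 changed collagens for 22Rv1 gRNA 1, 18 to 26 for gRNA 10 and 11 to 19 between guides. The ranges were 8 to 14, 11 to 19 and 15 to 20 in DU145 and 21 to 24, 21 to 26 and 21 to 23 in PC3. They were 29 to 33, 30 to 33 and 24 to 26 for the controls, and 13 to 17, 13 to 15 and 12 to 19 for the knockout effects. With the replicate block the counts were 18, 21 and 14 in 22Rv1, 11, 13 and 15 in DU145 and 23, 26 and 23 in PC3. Same-numbered libraries correlated from -0.189 to 0.339 in their deviations from the group means, not all above 0.1, so the numbers were not taken as pairs. Replicate numbers here are those of the sample titles. The library names of some groups carry other numbers, and pairing by those was not tried. Under the block, 22Rv1 COL21A1 with gRNA 1 (0.95, adjusted p = 0.0738) and COL4A6 with gRNA 10 (0.87, adjusted p = 0.0519) were lost, and 22Rv1 COL18A1 with gRNA 1 (2.19, 0.0104) and gRNA 10 (2.62, 0.004), COL6A1 with gRNA 10 (-1.59, 0.0144) and DU145 COL1A1 with gRNA 2 (-0.64, 0.0499) were gained. Calls also lost outside the leave-one-out fits were, without a filter, COL1A1 (adjusted p = 0.0807) and COL21A1 (0.113) with gRNA 1 and COL3A1 (0.08) with gRNA 10 in 22Rv1, and PC3 COL12A1 with gRNA 10 under RLE (0.0556) and 10 counts in every library (0.0504). With only the groups compared they were 22Rv1 COL4A4 (0.0686) and COL1A1 (0.0562) with gRNA 1, DU145 COL11A2 (0.0599) and COL9A2 (0.052) with gRNA 2 and PC3 COL12A1 (0.0995) with gRNA 10. With DESeq2 they were 22Rv1 COL21A1 (0.129) with gRNA 1 and COL3A1 (0.103) with gRNA 10, and PC3 COL8A1 (0.0527) and COL21A1 (0.0681) with gRNA 2 and COL24A1 (0.0509) and COL27A1 (0.0558) with gRNA 10. Of the 44 changes not called, 21 passed under at least 1 alternative, 11 of them under one other than leaving out a library. Beside the block, these were, with only the groups compared, COL6A1 (0.000715), COL7A1 (0.000655) and COL18A1 (0.0016) in 22Rv1 and COL4A4 (4.49e-07), COL8A2 (1.48e-08), COL16A1 (0.0196) and COL18A1 (0.00211) in DU145, all with gRNA 10, and COL9A2 (0.0451) with gRNA 2 in PC3. With DESeq2 they were COL18A1 with gRNA 1 (0.022) and gRNA 10 (0.0157) and COL6A1 with gRNA 10 (0.0293) in 22Rv1, and COL1A1 with gRNA 2 (0.0299) and COL4A4 (0.0321), COL8A2 (0.0455) and COL18A1 (0.0396) with gRNA 10 in DU145. COL25A1 with gRNA 1 in 22Rv1 passed with 10 counts in every library (0.0482), and COL18A1 with gRNA 10 in DU145 without a filter (0.0466). The values that changed sign were not called, and the cause was not tested. Leaving out 1 library gave a range of -0.0632 to 0.357 for COL2A1 with gRNA 10, -0.0671 to 1.54 for COL6A1 with gRNA 1 and -0.13 to 0.976 for COL7A1 with gRNA 1 in 22Rv1. In DU145 it gave -0.0472 to 0.0529 for COL5A2 with gRNA 10, -0.028 to 0.0572 for COL6A2 with gRNA 10, -0.059 to 0.167 for COL12A1, -0.606 to 0.0687 for COL26A1 and -0.559 to 0.1996 for COL4A3, the last 3 with gRNA 2. In PC3 it gave -1.49 to 0.202 for COL2A1 with gRNA 2 and -0.155 to 0.0165 for COL6A3 with gRNA 10. DU145 COL5A2 with gRNA 10 was also positive with RLE (0.00269), with 10 counts in every library (0.0058) and with DESeq2 (0.00267). Low counts limit COL4A3, COL4A4 and COL2A1 in PC3 controls and COL5A1 in DU145.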
